A study of Mus musculus with 28 samples.

Results

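The 42 genes described here encode the transport machinery and the gate of the primary cilium. They comprise 11 genes of the intraflagellar transport complex B (IFT-B), 3 of complex A (IFT-A), 3 motor subunits, 8 genes of the BBSome and its GTPase Arl6, the 2 chaperonin-like genes Bbs10 and Bbs12, the membrane GTPase Arl13b, 12 genes of the transition zone and the 2 centriolar genes Ofd1 and Cep164. The genes were chosen by name alone, as the rows of the deposited tables whose gene name equals a listed symbol, which gave 42 of 45318 gene rows, and that rule uses no measured value. All 42 passed the filter on low counts at both follow-ups. RNA was sequenced from the left ventricular wall of male Hsd:ICR(CD-1) mice, an outbred stock, in tissue taken from the remote zone away from the infarct. Mice underwent ligation of the left anterior descending coronary artery (myocardial infarction, MI) or a SHAM operation on postnatal day 1 or 7 and stayed with their litter and mother until tissue was taken 3 or 21 days later. No genetic alteration or drug is named for any group. The names 1d-SHAM and 1d-MI, or 7d-SHAM and 7d-MI, give the day of the operation and its kind, followed by + 3 or + 21 for the follow-up. Each group holds 4 libraries at 3 days and 3 libraries at 21 days. Mice operated on day 7 were older at collection than those operated on day 1, so the shams of both ages were compared as well.

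The primary cilium is a single antenna-like projection that most vertebrate cells build on their mother centriole when they leave the cell cycle and take down before they divide. Trains of IFT-B carried by kinesin-2 move cargo towards the tip, and IFT-A with cytoplasmic dynein 2 brings it back, while the BBSome hands membrane proteins to these trains and the transition zone at the base controls what enters and leaves. Hedgehog signaling runs through this organelle in vertebrates, and in the heart primary cilia are best known from fibroblasts and from the embryonic and newborn myocardium. The study raised the question of whether ciliary genes take part in the acute response to MI at 7 days of age.

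The libraries held between 33077962 and 51942648 counts at 3 days and between 40514177 and 168550985 at 21 days. Different kits and instruments were used at both follow-ups, so levels are compared within a follow-up only. Spread between libraries, as a biological coefficient of variation, came to 0.331 at the shorter and 0.567 at the longer follow-up. Cardiomyocyte genes were the most abundant of the marker lists in all groups, with a summed level of 8 genes between 16800.9 and 60599 CPM, or counts scaled to a common library size, at 3 days. Replicate 3 of 7d-MI + 3 held the highest of these sums, against 25535.3 to 28784.6 CPM in the other 3 libraries of its group. The 3 predicted genes of satellite-like sequence (Gm10722, Gm11168 and Gm10801) made up 0.0143% to 0.157% of the counts in the 4 libraries of 1d-MI + 3 and in replicates 1 and 2 of 1d-SHAM + 3, and at most 7.22e-05% in the other 10 libraries of that follow-up. Replicates 1 and 2 of 1d-SHAM + 3 share a name prefix, as do replicates 3 and 4, and the labels do not say what the prefix stands for. No prefix occurs in more than 1 group, and at 21 days every group has a single prefix of its own. Differences between groups can therefore not be told apart from differences between prefixes. At 21 days, cytoplasmic ribosomal RNA loci took 78.0% of replicate 2 of 1d-SHAM + 21, 53.0% of replicate 2 of 1d-MI + 21 and 63.7% of replicate 3 of 7d-SHAM + 21, against 0.524% to 38.1% in the other 9 libraries. In tissue RNA of this kind, fewer cells of a type and less RNA per cell cannot be told apart.

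Genes of the ciliary machinery are commonly under the control of regulatory factor X (RFX) proteins, which bind the X-box, a pair of inverted half-sites. The half-sites GTTNCC and GGNAAC, 0 to 3 bases apart and in that order, were searched on both strands in the 250 bases before each start site in RefSeq (GRCm38.p6). A pair was found at 3 of the 38 member genes with a listed promoter, or 7.89%, against 213 of 27025 genes, or 0.788%. These are Bbs7, Ift57 and Tctn3, whose sequences are shown since they are the members that carry the pair, with the matched bases in capitals and the strand of the gene read 5′ to 3′.
Bbs7, chr3:36613482-36613550, minus strand: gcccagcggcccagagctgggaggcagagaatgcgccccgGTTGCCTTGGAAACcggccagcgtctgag
Ift57, chr16:49699194-49699261, plus strand: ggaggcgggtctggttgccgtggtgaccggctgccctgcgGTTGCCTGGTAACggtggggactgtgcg
Tctn3, chr19:40612344-40612411, minus strand: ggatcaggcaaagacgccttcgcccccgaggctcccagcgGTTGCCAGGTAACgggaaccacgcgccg
The pair starts 121 bases before the RefSeq start site of Bbs7, 60 bases before that of Ift57 and 140 bases before that of Tctn3. In the GENCODE annotation release M21 the gene model of Ift57 starts at 49699233, so on that annotation the matched bases lie within the model and not before its start. A match describes these letters and is not a measured binding site. Of these 3 genes, Bbs7 and Ift57 were lower in 7d-MI than 1d-MI at 3 days, and Tctn3 did not pass the test in any comparison. On the same annotation, Ift57, Ift88, Bbs4, Bbs12, Arl6, Ofd1, Cep290, Tctn1, Tmem67 and Tmem216 share exon bases with a neighbouring gene, from 1.31% of the bases of Bbs12 to 18.98% of those of Tctn1. Without strand, reads there cannot be told apart. For Bbs12 an overlapping gene lies on the same strand, so strand would not separate those reads.

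Levels of different genes can be compared only per length, and were taken as TMM-scaled CPM (scaled by the trimmed mean of M-values) per kilobase of the gene length in the deposited files. At 3 days the mean of the 4 group means ran from 0.132 CPM per kb for Tctn2 to 41.3 CPM per kb for Ift20. Ift20, the IFT-B subunit that also sits at the Golgi, and Ift43 of IFT-A (31.8 CPM per kb) led the order, followed by Ift74 (11.7 CPM per kb), Ift52 (7.40 CPM per kb), Arl6 (7.21 CPM per kb) and Ift81 (6.08 CPM per kb). The deposited length of Ift43 was 775 bases, against 1651 exon bases in GENCODE M21. For Ift27 these lengths were 1012 and 2864 bases, and for Bbs4 2542 and 6039 bases. Places in the order therefore depend on the lengths used. The lowest 5 were Tmem231, Tctn1, Bbs1, Nphp4 and Tctn2, between 0.132 and 0.264 CPM per kb, and 4 of these belong to the transition zone. Neighbours in the middle of the order lay closer together than the spread over the groups: Bbs9, Ift22 and Ift172 stood at 2.01, 1.97 and 1.96 CPM per kb, and the group means of Ift172 alone spread over 1.53 to 2.503 CPM per kb. Summed over the 42 genes, the level at 3 days ran from 418.4 to 554.7 CPM for 1d-SHAM, from 400.9 to 514.6 CPM for 1d-MI, from 417.8 to 450.8 CPM for 7d-SHAM and from 317.7 to 430.0 CPM for 7d-MI.

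**Figure D1:**
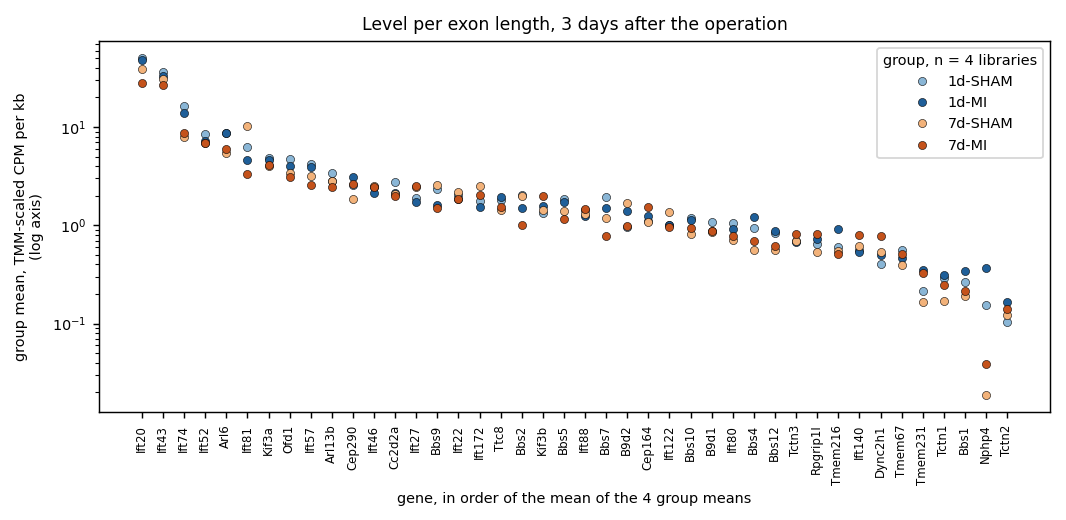
Mean level of each ciliary gene 3 days after the operation, in TMM-scaled CPM per kilobase of gene length on a log axis, with 1 point for each group of 4 libraries and the genes in order of their mean. With the deposited gene lengths, Ift20 and Ift43 stand above the rest, and the points of Nphp4 spread most widely, from 0.0187 CPM per kb in 7d-SHAM to 0.372 CPM per kb in 1d-MI.

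Comparing the infarcted hearts of both ages at 3 days, 7d-MI against 1d-MI, 3 of the 42 genes were higher and 11 lower at an adjusted p under 0.05. The 3 higher members are 7.14% of the 42, beside 19.4% of all 20345 genes tested that were higher. The 14 called in either direction are 33.3%, beside 43.0% of all genes. The 11 lower members are 26.2%, beside 4789 of the 20345 genes tested. The members' shares stood below the background for higher calls and for both directions together and a little above it for lower calls, and whether the shares differ was not tested. The members' median log2 fold change was -0.23 and that of all genes tested was -0.13. The direction of single calls leaned on the scaling: with upper-quartile scaling, which moved the median of all genes by -0.24, no member was higher and 18 were lower, and all genes gave 2506 higher and 6684 lower calls in place of 3956 and 4789. Leaving out single libraries reduced the 14 calls to 9 without replicate 1, 3 or 4 of 1d-MI, to 8 without replicate 2 of 7d-MI and to 6 without replicate 3 of 7d-MI. Satellite-like reads made up 0.0143% to 0.157% of the counts in the libraries of 1d-MI and at most 6.885e-05% in those of 7d-MI. That difference coincides with the groups, so its part in the calls cannot be told apart. No alternative compared these groups at an equal share of such reads. Fibroblast markers were higher in 7d-MI for 10 of 10 genes, with a summed level of 6279.6 to 7157.7 CPM against 1834.1 to 3455.7 CPM in 1d-MI, and macrophage markers for 8 of 8 genes, with 273.3 to 467.0 CPM against 64.1 to 160.7 CPM. Endothelial markers were higher for 6 of 7 genes. Their part in the ciliary differences was not tested.

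The effect of MI at 7 days of age, 7d-MI against 7d-SHAM at 3 days, called 4 members higher and 4 lower. That is 9.52% each way, beside 19.8% of all genes that were higher and 14.2% that were lower. The members' median was 0.074 and that of all genes 0.082. With upper-quartile scaling no member was higher, 7 were lower and the median was -0.016. The 8 calls were reduced to 4 without replicate 2 and 3 without replicate 3 of 7d-SHAM, and to 5 without replicate 2 or 4 of 7d-MI. Proliferation markers were higher in 7d-MI for 9 of 10 genes, with a summed level of 745.0 to 861.1 CPM against 184.5 to 354.3 CPM in 7d-SHAM, and macrophage markers for 7 of 8 genes, with 273.3 to 467.0 CPM against 92.8 to 118.7 CPM. Fibroblast markers were higher for 7 of 10 genes and lower for 3. Cardiomyocyte markers were lower for 4 of 8 genes. Their part in the ciliary differences was not tested.

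The effect of MI at 1 day of age, 1d-MI against 1d-SHAM at 3 days, called 1 member, Bbs9, beside 8.46% of all genes called. The members' median was -0.077, and it was 0.059 with upper-quartile scaling, under which no member was called and all genes gave 1109 higher and 304 lower calls in place of 834 and 888. RLE scaling gave 897 and 598. No member was called without replicate 3 or 4 of 1d-SHAM or replicate 1 or 2 of 1d-MI, and 3 were called without replicate 2 of 1d-SHAM or replicate 3 of 1d-MI. In the same comparison, the share of satellite-like reads was high in all 4 libraries of 1d-MI and in 2 of the 4 of 1d-SHAM. Against replicates 3 and 4 of 1d-SHAM alone, 3 members were higher and 1 lower, while all 24248 genes tested gave 3812 higher and 1787 lower calls. Against replicates 1 and 2 alone no member was called, and all 24581 genes gave 218 and 210. Macrophage markers were higher in 1d-MI for 3 of 8 genes and cardiomyocyte markers lower for 3 of 8, and their part in the ciliary values was not tested. The direct test of whether the MI effect differed with age called 1 member, Ift81, beside 13.1% of all genes called. All genes gave 1833 higher and 829 lower calls there, against 1484 and 1070 with RLE scaling and 1019 and 1753 with upper-quartile scaling, and Ift81 alone was called under both.

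Between the shams, 7d-SHAM against 1d-SHAM at 3 days, 2 members were higher and 7 lower, or 4.76% and 16.7%, beside 8.12% of all genes that were higher and 12.2% that were lower. The members' median was -0.29 and that of all genes -0.13. This result depended on which libraries of 1d-SHAM were used. Against replicates 3 and 4 of 1d-SHAM, no member was called and the median was -0.097, while all genes tested gave 678 higher and 832 lower calls of 24248. Against replicates 1 and 2, which carry the satellite-like reads, 5 members were higher and 11 lower, with a median of -0.35, while all 24581 genes tested gave 2752 higher and 4654 lower calls, with a median of -0.29. When limma-voom took that prefix as a random block (the prefix block), no member was called. The share of all genes called with the prefix block is not given here, so this count cannot be set against a background. The 9 calls became 3 without replicate 1 and 2 without replicate 2 of 1d-SHAM, and 4 or 5 without any one library of 7d-SHAM. All 10 proliferation markers were lower in 7d-SHAM, with a summed level of 184.5 to 354.3 CPM against 531.6 to 1182.6 CPM in 1d-SHAM. Markers of fibroblasts were higher in 7d-SHAM for 7 of 10 genes, of macrophages for 6 of 8, of endothelium for 4 of 7 and of cardiomyocytes for 4 of 8, with 1 of the last lower. The part of these cells in the ciliary differences was not tested.

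**Figure D2:**
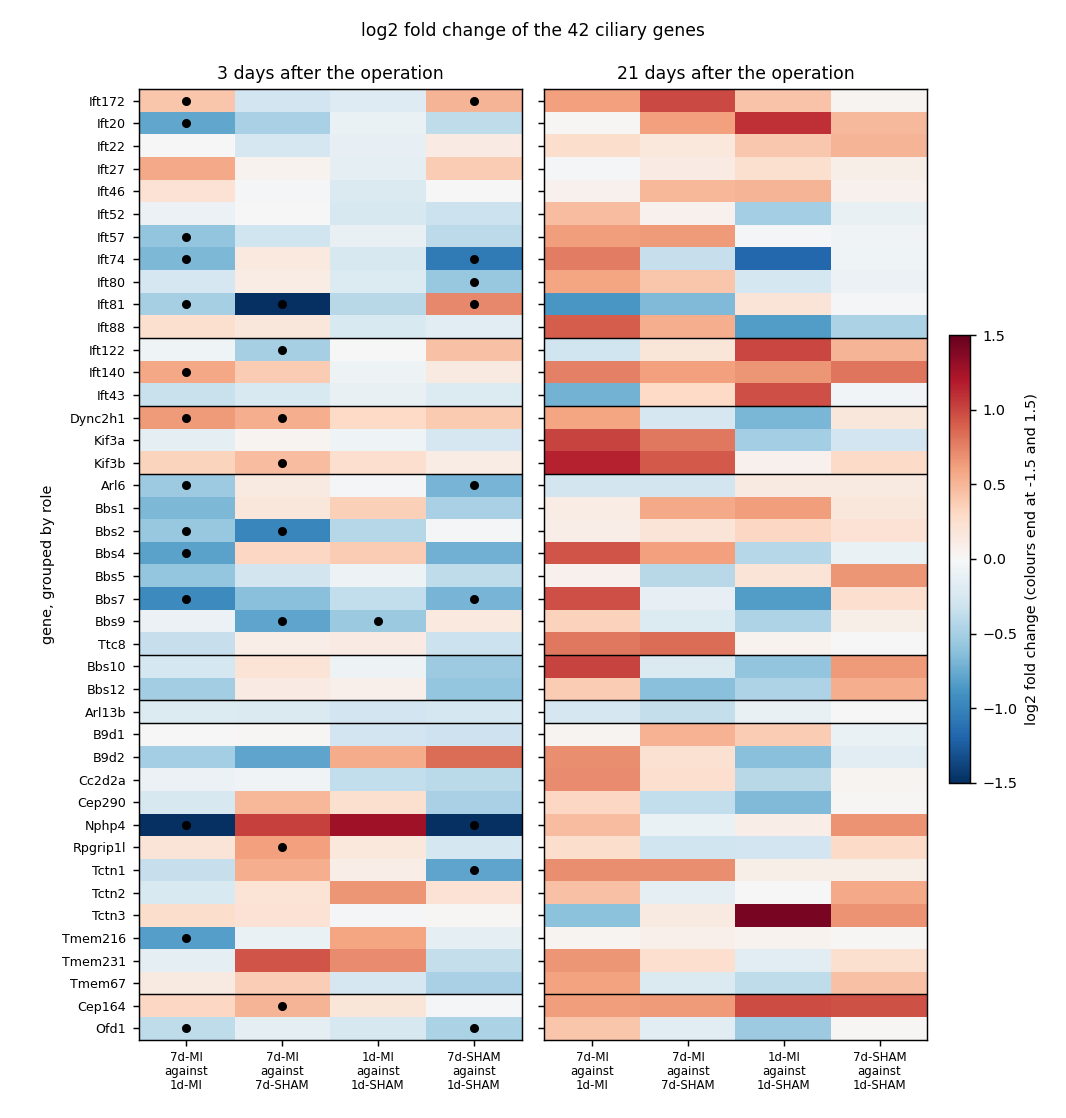
log2 fold change of the 42 ciliary genes in 4 comparisons at 3 days (left) and 21 days (right), with rows grouped by role and colours ending at -1.5 and 1.5. Dots mark an adjusted p under 0.05; they are spread over all roles but the chaperonin-like genes and Arl13b at 3 days, and there are none at 21 days.

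Ift81, which with Ift74 forms the tubulin-binding module of IFT-B, showed the largest effect of MI at 7 days among the members. The gene (ENSMUSG00000029469) lies at chr5:122550204-122614518 on the minus strand of GRCm38. Its level at 3 days was 42.4, 33.7, 25.8 and 42.8 for 1d-SHAM, 19.8, 31.5, 37.2 and 20.04 for 1d-MI, 68.5, 63.1, 51.9 and 54.4 for 7d-SHAM and 23.04, 18.4, 19.02 and 16.5 for 7d-MI (TMM-scaled CPM, also for the values that follow). All 4 libraries of 7d-SHAM lay above all others, and the 4 of 7d-MI lay below them without overlap. The log2 fold change of 7d-MI against 7d-SHAM was -1.63 ± 0.20 (SE, adjusted p = 4.06e-06), kept under 18 of 18 alternatives (adjusted p 1.81e-18 to 9.33e-05). In 1d-MI against 1d-SHAM it was -0.41 ± 0.20 (SE, adjusted p = 0.179), with groups that overlap. The MI effect at 7 days less that at 1 day was -1.21 ± 0.28 (SE, adjusted p = 0.007503), kept under 26 of 27 alternatives (adjusted p 9.98e-05 to 0.0608). It was lost with the prefix block. Ift81 was also higher in 7d-SHAM than in 1d-SHAM, by 0.72 ± 0.20 (SE, adjusted p = 0.0154), and lower in 7d-MI than 1d-MI, by -0.50 ± 0.20 (SE, adjusted p = 0.0482), where the groups overlap. The age difference of the shams was kept under 17 of 20 alternatives (adjusted p 3.85e-04 to 0.0814). The call was lost with the prefix block, 1d-SHAM replicates 3 and 4 alone and the fits without replicate 1 of 7d-SHAM. It was 0.80 (adjusted p = 0.0644) against replicates 3 and 4 of 1d-SHAM. The difference of the MI groups was kept under 10 of 18 alternatives (adjusted p 0.00607 to 0.228). No call remained with limma-voom, the prefix block, the fit of both groups alone and the fits without replicates 2 or 3 of 1d-MI or replicates 2, 3 or 4 of 7d-MI.

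Ift74, the partner of Ift81, did not follow it. Its level was 49.8, 59.8, 23.6 and 40.4 for 1d-SHAM, 33.1, 32.5, 42.4 and 38.6 for 1d-MI, 22.6, 20.2, 20.4 and 19.9 for 7d-SHAM and 33.03, 19.2, 14.3 and 25.3 for 7d-MI. Of the 7d-MI libraries 1 lay within the range of 1d-MI, and 7d-MI and 7d-SHAM overlapped. Ift74 was lower in 7d-MI than 1d-MI, by -0.68 ± 0.24 (SE, adjusted p = 0.0302), and lower in 7d-SHAM than in 1d-SHAM, by -1.06 ± 0.24 (SE, adjusted p = 0.00559). The MI effect at 7 days was 0.14 ± 0.24 (SE, adjusted p = 0.709), so the module's other gene gave no call where Ift81 fell most. Against replicates 3 and 4 of 1d-SHAM the age difference was -0.62 (adjusted p = 0.1702). The call between the MI groups was kept under 14 of 18 alternatives (adjusted p 0.00364 to 0.0964), the exceptions being the fits without replicates 3 or 4 of 1d-MI or replicates 2 or 3 of 7d-MI, and that between the shams was kept under 18 of 20 alternatives (adjusted p 1.51e-07 to 0.1702). The threshold was missed with the prefix block and 1d-SHAM replicates 3 and 4 alone.

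Ift20 and Ift57 were lower in 7d-MI than 1d-MI, calls kept under 18 of 18 alternatives each. None of these alternatives compared the groups at an equal share of satellite-like reads. Ift20 stood at 92.4, 84.9, 59.8 and 73.1 for 1d-SHAM, 65.02, 68.1, 82.6 and 74.7 for 1d-MI, 63.5, 66.2, 56.1 and 52.1 for 7d-SHAM and 61.4, 41.7, 22.5 and 43.6 for 7d-MI. The groups of the MI hearts did not overlap, and replicate 3 of 7d-MI was the lowest of the 16 libraries. The log2 fold change was -0.78 ± 0.21 (SE, adjusted p = 0.00576). Ift57, a subunit of the peripheral part of IFT-B, was measured at 13.95, 13.1, 9.43 and 11.8 for 1d-SHAM, 10.5, 10.3, 11.3 and 12.6 for 1d-MI, 9.14, 10.2, 7.63 and 9.77 for 7d-SHAM and 9.43, 7.37, 5.62 and 7.33 for 7d-MI. It was lower by -0.59 ± 0.16 (SE, adjusted p = 0.00769) without overlap of the MI groups. Neither gene passed the test against its sham, with -0.49 (adjusted p = 0.0761) for Ift20 and -0.30 (adjusted p = 0.172) for Ift57 in 7d-MI against 7d-SHAM. Ift57 shares 225 exon bases with an antisense transcript, and the strand setting of the counting is not given in the sources used here.

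Ift172, the large peripheral subunit at which trains are thought to turn at the ciliary tip, went the other way. Its level was 6.95, 9.51, 10.6 and 10.95 for 1d-SHAM, 7.12, 7.51, 9.25 and 9.19 for 1d-MI, 11.2, 13.6, 15.1 and 14.2 for 7d-SHAM and 11.6, 9.79, 11.8 and 11.02 for 7d-MI. The 7d-MI libraries lay above those of 1d-MI, and the 7d-SHAM libraries above those of 1d-SHAM, without overlap. The log2 fold change was 0.42 ± 0.16 (SE, adjusted p = 0.03603) in 7d-MI against 1d-MI and 0.51 ± 0.16 (SE, adjusted p = 0.0269) in 7d-SHAM against 1d-SHAM. The first was kept under 6 of 18 alternatives (adjusted p 0.0261 to 0.304). It did not hold with RLE scaling, upper-quartile scaling, TMM without the top 20 genes, a mean count of at least 50, DESeq2, the prefix block, subtracted background and the fits without replicates 1 or 2 of 1d-MI or replicates 1, 3 or 4 of 7d-MI. The second was kept under 12 of 20 alternatives (adjusted p 0.00501 to 0.348), the exceptions being no filter on counts, the prefix block, 1d-SHAM replicates 3 and 4 alone and the fits without replicates 1 or 2 of 1d-SHAM or replicates 2, 3 or 4 of 7d-SHAM, and its change against replicates 3 and 4 of 1d-SHAM was 0.33 (adjusted p = 0.348). Ift80 was measured at 13.9, 17.04, 12.2 and 9.29 for 1d-SHAM, 8.44, 11.4, 13.6 and 12.1 for 1d-MI, 8.56, 7.74, 9.63 and 9.53 for 7d-SHAM and 10.6, 9.05, 8.76 and 10.0002 for 7d-MI and was lower in 7d-SHAM than in 1d-SHAM, by -0.57 ± 0.18 (SE, adjusted p = 0.0291), and at -0.28 (adjusted p = 0.491) against those replicates. That call was kept under 12 of 20 alternatives (adjusted p 0.0057 to 0.491). It was lost with limma-voom, the prefix block, 1d-SHAM replicates 3 and 4 alone and the fits without replicates 1 or 2 of 1d-SHAM or replicates 1, 2 or 4 of 7d-SHAM.

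The other 5 genes of IFT-B were called in no comparison at 3 days. Ift27, the small GTPase that links IFT-B to the export of the BBSome, stood at 1.59, 1.81, 1.75 and 1.79 for 1d-MI and 2.93, 2.98, 1.88 and 2.47 for 7d-MI, groups that do not overlap, and gave 0.57 ± 0.30 (SE, adjusted p = 0.127). Ift46, a core subunit, stood at 12.1, 10.3, 13.1 and 12.6 for 1d-MI and 14.7, 14.7, 13.3 and 13.2 for 7d-MI, also without overlap, with 0.21 ± 0.12 (SE, adjusted p = 0.176). For Ift22, Ift52 and Ift88, the last the subunit whose loss shortens or removes cilia, the fold changes of that comparison were -0.0094, -0.083 and 0.24. Over the 11 genes of IFT-B, 1 rose and 4 fell in 7d-MI against 1d-MI with a median of -0.083, 0 rose and 1 fell in 7d-MI against 7d-SHAM with a median of -0.017, and 2 rose and 2 fell between the shams with a median of -0.16. Beside these, all 20345 genes gave 3956 higher and 4789 lower calls in the first comparison, 4024 and 2886 in the second and 1652 and 2473 in the third.

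The 3 genes of IFT-A, the complex of return transport and of entry of membrane receptors, were called once each or not at all. Ift140 had levels of 2.69, 3.62, 6.002 and 4.79 for 1d-SHAM, 3.88, 3.66, 4.94 and 3.77 for 1d-MI, 4.69, 4.58, 4.89 and 4.53 for 7d-SHAM and 6.01, 6.46, 6.31 and 5.49 for 7d-MI and was higher in 7d-MI than in 1d-MI, by 0.58 ± 0.20 (SE, adjusted p = 0.0263), without overlap. The call was kept under 12 of 18 alternatives (adjusted p 0.0138 to 0.161). The call was lost with upper-quartile scaling, a mean count of at least 50 and the fits without replicates 1, 2 or 4 of 1d-MI or replicate 2 of 7d-MI. Ift122 read 6.43, 8.44, 9.59 and 7.39 for 1d-SHAM, 6.72, 8.51, 10.1 and 6.72 for 1d-MI, 8.497, 10.5, 11.2 and 13.03 for 7d-SHAM and 7.65, 6.36, 9.29 and 7.35 for 7d-MI. It was lower in 7d-MI than 7d-SHAM, by -0.50 ± 0.18 (SE, adjusted p = 0.0375), with groups that overlap, kept under 10 of 18 alternatives (adjusted p 0.0105 to 0.157). No call remained with no filter on counts, the prefix block and the fits without replicates 2, 3 or 4 of 7d-SHAM or replicates 1, 2 or 4 of 7d-MI. Ift43, at 18.5, 29.5, 25.8 and 29.7 for 1d-MI and 24.7, 21.02, 12.7 and 23.9 for 7d-MI, gave -0.33 ± 0.18 (SE, adjusted p = 0.152) in 7d-MI against 1d-MI, where replicate 3 of 7d-MI was the lowest.

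Both directions of transport have a motor among the members, and those called were higher in 7d-MI. Dync2h1, the heavy chain of cytoplasmic dynein 2, was found at 7.19, 6.53, 5.09 and 7.56 for 1d-SHAM, 10.6, 7.33, 6.97 and 7.55 for 1d-MI, 11.5, 6.87, 7.63 and 8.66 for 7d-SHAM and 11.2, 11.3, 14.7 and 13.3 for 7d-MI. All libraries of 7d-MI lay above those of 1d-MI, while 1 library of 7d-SHAM lay within the range of 7d-MI. It was higher by 0.64 ± 0.18 (SE, adjusted p = 0.008998) against 1d-MI, kept under 17 of 18 alternatives (adjusted p 0.001702 to 0.115). The threshold was missed with upper-quartile scaling. Against 7d-SHAM it was higher by 0.54 ± 0.18 (SE, adjusted p = 0.0268), kept under 11 of 18 alternatives (adjusted p 0.00701 to 0.0976). It did not hold with upper-quartile scaling, the prefix block and the fits without replicates 2, 3 or 4 of 7d-SHAM or replicates 3 or 4 of 7d-MI. Kif3b, a motor subunit of kinesin-2, gave 7.42, 8.71, 6.51 and 7.26 for 1d-SHAM, 7.71, 9.203, 9.71 and 8.96 for 1d-MI, 6.19, 9.66, 7.12 and 9.39 for 7d-SHAM and 11.3, 11.3, 11.2 and 10.9 for 7d-MI. It was higher by 0.47 ± 0.15 (SE, adjusted p = 0.0234) in 7d-MI against 7d-SHAM, without overlap, kept under 12 of 18 alternatives (adjusted p 0.0166 to 0.0982). It was lost with upper-quartile scaling, no filter on counts, the prefix block and the fits without replicates 1 or 3 of 7d-SHAM or replicate 2 of 7d-MI. Its partner subunit Kif3a, at 17.1, 12.8, 13.4 and 14.3 for 7d-SHAM and 18.1, 12.9, 13.1 and 15.2 for 7d-MI, gave 0.040 ± 0.18 (SE, adjusted p = 0.917) there and -0.15 ± 0.18 (SE, adjusted p = 0.545) against 1d-MI.

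Genes of the BBSome and Arl6, the coat that sorts receptors for export and the GTPase that recruits it to membrane, were lower in 7d-MI than 1d-MI for 4 of 8, and all 8 fold changes were negative, with a median of -0.58. Of all 20345 genes tested, 4789 were lower, and the median was -0.13. Between the shams, 2 of the 8 were lower in 7d-SHAM, 7 fold changes were negative and the median was -0.43. All genes gave 2473 lower calls there, with a median of -0.13. In 7d-MI against 7d-SHAM, 2 of the 8 were lower, beside 2886 of all genes, with a median of -0.091. The difference of the MI effects called 0 of the 8, beside 13.1% of all genes. Bbs7 had the smallest p of the 8 in 7d-MI against 1d-MI. Its level was 12.9, 13.8, 8.53 and 6.56 for 1d-SHAM, 8.04, 5.72, 8.87 and 9.79 for 1d-MI, 4.32, 8.33, 5.92 and 7.301 for 7d-SHAM and 4.53, 4.51, 3.095 and 4.58 for 7d-MI, so that every library of 7d-MI lay under every library of 1d-MI. It was lower by -0.96 ± 0.24 (SE, adjusted p = 0.00395), kept under 18 of 18 alternatives (adjusted p 3.31e-04 to 0.0166). It was also lower in 7d-SHAM than in 1d-SHAM, by -0.69 ± 0.24 (SE, adjusted p = 0.0474), but -0.22 (adjusted p = 0.737) against replicates 3 and 4 of 1d-SHAM. The sham call was kept under 9 of 20 alternatives (adjusted p 0.00324 to 0.737). The call was lost with TMM without the top 20 genes, limma-voom, the prefix block, the fit of both groups alone, subtracted background, 1d-SHAM replicates 3 and 4 alone and the fits without replicates 1 or 2 of 1d-SHAM or replicates 1, 3 or 4 of 7d-SHAM.

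Bbs2, a subunit of the BBSome core, and Bbs9, one of its scaffold subunits, were lower after MI at 7 days. Bbs2 stood at 7.84, 7.63, 5.03 and 5.39 for 1d-SHAM, 3.88, 4.29, 5.97 and 5.16 for 1d-MI, 8.599, 5.48, 6.71 and 4.78 for 7d-SHAM and 3.34, 3.58, 2.57 and 3.49 for 7d-MI. Its 7d-MI libraries were the lowest of all groups and overlapped with no other group. The log2 fold change was -0.98 ± 0.22 (SE, adjusted p = 0.001404) against 7d-SHAM, kept under 18 of 18 alternatives (adjusted p 7.28e-05 to 0.0187). Against 1d-MI it was -0.57 ± 0.21 (SE, adjusted p = 0.0366), kept under 11 of 18 alternatives (adjusted p 0.00462 to 0.126). No call remained with no filter on counts, the prefix block and the fits without replicates 3 or 4 of 1d-MI or replicates 1, 3 or 4 of 7d-MI. Bbs9 stood at 13.97, 13.1, 15.2 and 16.5 for 1d-SHAM, 9.36, 8.53, 11.1 and 10.7 for 1d-MI, 18.8, 14.3, 15.1 and 16.6 for 7d-SHAM and 11.2, 9.75, 8.404 and 8.16 for 7d-MI. Both MI groups lay below both SHAM groups without overlap. It was lower by -0.79 ± 0.14 (SE, adjusted p = 2.37e-04) after MI at 7 days, kept under 18 of 18 alternatives (adjusted p 1.20e-07 to 0.00347), and by -0.56 ± 0.14 (SE, adjusted p = 0.02301) after MI at 1 day. The second call was kept under 12 of 20 alternatives (adjusted p 0.00702 to 0.184). The threshold was missed with upper-quartile scaling, the prefix block, the fit of both groups alone, 1d-SHAM replicates 1 and 2 alone and the fits without replicates 3 or 4 of 1d-SHAM or replicates 1 or 2 of 1d-MI. Against replicates 1 and 2 of 1d-SHAM the change was -0.45 (adjusted p = 0.184). The difference between the MI effects was -0.23 ± 0.20 (SE, adjusted p = 0.5103), and for Bbs2 it was -0.55 ± 0.30 (SE, adjusted p = 0.247), so neither was shown to depend on age.

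**Figure D3:**
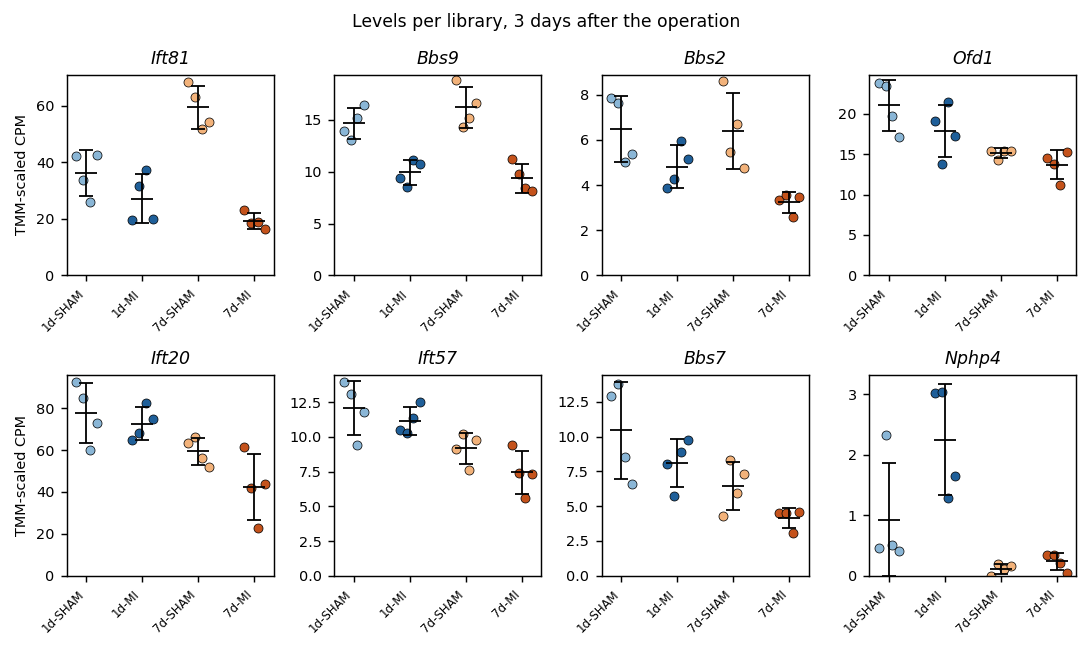
Level of 8 ciliary genes in each library 3 days after the operation, in TMM-scaled CPM from 0, with 1 point per library, the horizontal mark at the group mean and bars of 1 SD (n = 4). Ift81 falls from 51.9 to 68.5 CPM in 7d-SHAM to 16.5 to 23.0 CPM in 7d-MI, Bbs9 is lower in both MI groups than in their shams, and Nphp4 lies at 0.348 CPM or lower in both groups of day 7.

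Bbs4, a subunit that joins the complex late, was found at 2.89, 3.02, 1.02 and 2.53 for 1d-SHAM, 3.498, 2.41, 3.22 and 3.23 for 1d-MI, 1.39, 1.795, 1.08 and 1.47 for 7d-SHAM and 1.99, 1.74, 1.43 and 1.93 for 7d-MI. The MI groups did not overlap, and it was lower in 7d-MI by -0.80 ± 0.28 (SE, adjusted p = 0.0282), kept under 12 of 18 alternatives (adjusted p 0.00709 to 0.0749). It did not hold with no filter on counts and the fits without replicates 1, 3 or 4 of 1d-MI or replicates 2 or 3 of 7d-MI. In 7d-SHAM against 1d-SHAM, Bbs4 gave -0.72 (adjusted p = 0.0794), which was not called. The difference of the MI effects for Bbs4 was -0.078 (adjusted p = 0.948). Arl6 was found at 23.8, 21.3, 14.2 and 14.3 for 1d-SHAM, 17.2, 17.5, 20.7 and 17.6 for 1d-MI, 10.9, 10.5, 11.1 and 12.97 for 7d-SHAM and 16.7, 10.8, 8.697 and 13.7 for 7d-MI. It was lower in 7d-MI than 1d-MI, by -0.55 ± 0.19 (SE, adjusted p = 0.0253), and in 7d-SHAM than in 1d-SHAM, by -0.70 ± 0.19 (SE, adjusted p = 0.0157), in each case without overlap. The call between the MI groups was kept under 15 of 18 alternatives (adjusted p 0.00261 to 0.0932). It was lost with the fits without replicate 3 of 1d-MI or replicates 2 or 3 of 7d-MI. That between the shams was kept under 16 of 20 alternatives (adjusted p 0.00114 to 0.411), the exceptions being the prefix block, 1d-SHAM replicates 3 and 4 alone and the fits without replicates 1 or 2 of 1d-SHAM, and the change against replicates 3 and 4 of 1d-SHAM was -0.33 (adjusted p = 0.411). Of the genes not called, Bbs5 stood at 3.81, 3.75, 4.74 and 4.702 for 1d-MI and 3.06, 2.82, 2.12 and 3.41 for 7d-MI, without overlap, with -0.58 ± 0.24 (SE, adjusted p = 0.0552), and Bbs1 at 1.72, 2.77, 1.03 and 2.14 for 1d-MI and 1.002, 1.296, 1.31 and 1.17 for 7d-MI, with -0.68 ± 0.34 (SE, adjusted p = 0.116). Ttc8, also known as Bbs8, gave -0.35.

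The chaperonin-like proteins Bbs10 and Bbs12 help the BBSome to assemble, and Arl13b is a GTPase of the ciliary membrane needed for Hedgehog signaling. None of the 3 was called in any comparison. Bbs12 was at 1.63, 1.698, 2.302 and 2.95 for 1d-MI and 1.49, 1.51, 1.097 and 1.89 for 7d-MI, with -0.52 ± 0.26 (SE, adjusted p = 0.1099) in 7d-MI against 1d-MI. Bbs10 was at 3.67, 3.33, 3.096 and 2.26 for 1d-MI and 2.45, 2.57, 2.62 and 2.65 for 7d-MI, with -0.26 ± 0.21 (SE, adjusted p = 0.32004). Arl13b, at 14.5, 12.2, 16.1 and 14.3 for 1d-MI and 14.4, 12.8, 9.38 and 13.1 for 7d-MI, gave -0.20 ± 0.14 (SE, adjusted p = 0.263), and its fold changes in the 4 comparisons lay between -0.28 and -0.20.

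Among the 12 genes of the transition zone, 2 were lower in 7d-MI than 1d-MI, 1 was higher in 7d-MI than in 7d-SHAM and 2 were lower in 7d-SHAM than in 1d-SHAM. The same calls came to 4789, 4024 and 2473 of all 20345 genes, so that the shares of 16.7%, 8.33% and 16.7% stood under, under and a little over those of all genes. Nphp4, a module partner of Rpgrip1l, showed the largest fold change of the members in 7d-MI against 1d-MI and between the shams. It was measured at 0.458, 2.33, 0.509 and 0.3995 for 1d-SHAM, 3.02, 3.04, 1.29 and 1.64 for 1d-MI, 0, 0.186, 0.102 and 0.163 for 7d-SHAM and 0.334, 0.348, 0.215 and 0.0434 for 7d-MI. The log2 fold change was -3.23 ± 0.68 (SE, adjusted p = 0.00106) in 7d-MI against 1d-MI, kept under 17 of 17 alternatives (adjusted p 5.28e-07 to 0.00436), and -2.99 ± 0.74 (SE, adjusted p = 0.00828) in 7d-SHAM against 1d-SHAM. The highest 5 values were those of the 4 libraries of 1d-MI and replicate 2 of 1d-SHAM, all of which carry the satellite-like reads, and replicate 1 of 1d-SHAM, which carries them too, stood at 0.458 CPM. Against replicates 3 and 4 of 1d-SHAM, the sham difference was -1.97 (adjusted p = 0.115), and the call was kept under 15 of 19 alternatives (adjusted p 4.25e-05 to 0.228). The call was lost with limma-voom, the prefix block, 1d-SHAM replicates 3 and 4 alone and the fits without replicate 2 of 1d-SHAM. Both Nphp4 calls were kept with subtracted background, a rate taken from receptor genes (symbols Olfr and Vmn). That rate was 1.04 to 3.35 counts per kb in 1d-MI and 0.428 to 0.539 counts per kb in 7d-MI. The part of the satellite-like reads themselves in the result was not tested.

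Tmem216, a tetraspan membrane protein of the zone, was read at 1.02, 1.37, 1.26 and 1.13 for 1d-SHAM, 2.24, 1.59, 1.71 and 1.68 for 1d-MI, 1.05, 0.991, 1.15 and 1.14 for 7d-SHAM and 0.835, 1.18, 0.881 and 1.17 for 7d-MI. It was lower in 7d-MI than 1d-MI, by -0.83 ± 0.27 (SE, adjusted p = 0.0172), without overlap, kept under 14 of 18 alternatives (adjusted p 0.00169 to 0.151). No call remained with no filter on counts and the fits without replicate 1 of 1d-MI or replicates 1 or 3 of 7d-MI. Rpgrip1l, a scaffold of the zone, was read at 6.25, 8.16, 4.87 and 6.03 for 1d-SHAM, 4.08, 8.55, 8.61 and 7.07 for 1d-MI, 5.85, 4.24, 5.199 and 5.86 for 7d-SHAM and 8.43, 8.08, 8.46 and 7.35 for 7d-MI and was higher in 7d-MI than in 7d-SHAM, by 0.61 ± 0.21 (SE, adjusted p = 0.0281), without overlap. That call was kept under 11 of 18 alternatives (adjusted p 0.00729 to 0.109). The threshold was missed with upper-quartile scaling, the prefix block and the fits without replicates 2 or 3 of 7d-SHAM or replicates 1, 2 or 3 of 7d-MI. Tctn1, a tectonic needed for Hedgehog signaling, was read at 2.29, 3.32, 2.46 and 1.598 for 1d-SHAM, 3.56, 2.46, 1.45 and 2.95 for 1d-MI, 1.29, 1.45, 1.18 and 1.68 for 7d-SHAM and 1.89, 2.07, 2.06 and 2.17 for 7d-MI. It was lower in 7d-SHAM than in 1d-SHAM, by -0.79 ± 0.28 (SE, adjusted p = 0.0497), at the edge of the threshold and with groups that overlap. The call was kept under 4 of 20 alternatives (adjusted p 0.0204 to 0.423). It did not hold with RLE scaling, upper-quartile scaling, TMM without the top 20 genes, no filter on counts, limma-voom, the prefix block, the fit of both groups alone, subtracted background, 1d-SHAM replicates 3 and 4 alone and the fits without replicates 1, 2 or 3 of 1d-SHAM or replicates 1, 2, 3 or 4 of 7d-SHAM. Tctn1 shares 1574 exon bases, 18.98% of its own, with Hvcn1 on the opposite strand.

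The other 8 genes of the transition zone were called in no comparison. B9d2, of the B9 complex, was at 1.36, 0.6701, 1.69 and 1.98 for 1d-MI and 1.41, 0.716, 1.04 and 0.824 for 7d-MI, with -0.52 ± 0.41 (SE, adjusted p = 0.321), and Tctn3 was at 1.82, 3.04, 2.36 and 1.68 for 1d-MI and 2.69, 1.84, 2.62 and 3.51 for 7d-MI, with 0.26 ± 0.29 (SE, adjusted p = 0.485). For B9d1, Cc2d2a, Cep290, Tctn2, Tmem231 and Tmem67 the fold changes of 7d-MI against 1d-MI lay between -0.24 and 0.13. Cep290, which bridges the microtubules to the membrane at the gate, had levels of 17.5, 10.96, 16.1 and 14.5 for 7d-SHAM and 21.2, 20.6, 20.6 and 20.98 for 7d-MI without overlap, with 0.50 ± 0.27 (SE, adjusted p = 0.183).

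Of the centriolar genes, Ofd1 is needed for the distal end of the centriole and Cep164 for the appendages that dock it to the membrane. Ofd1 (ENSMUSG00000040586, chrX:166390033-166440704, minus strand of GRCm38) was measured at 23.8, 23.4, 19.7 and 17.1 for 1d-SHAM, 19.1, 13.7, 21.4 and 17.3 for 1d-MI, 15.4, 14.2, 15.4 and 15.4 for 7d-SHAM and 14.5, 13.7, 11.2 and 15.3 for 7d-MI. The MI groups overlapped, and the 7d-SHAM libraries lay below those of 1d-SHAM without overlap. Ofd1 was lower in 7d-MI than 1d-MI, by -0.39 ± 0.15 (SE, adjusted p = 0.0407), and in 7d-SHAM than in 1d-SHAM, by -0.48 ± 0.15 (SE, adjusted p = 0.029996). Its log2 fold change after MI was -0.14 ± 0.15 (SE, adjusted p = 0.4996) at 7 days of age and -0.24 ± 0.15 (SE, adjusted p = 0.3002) at 1 day, neither of which passed. The MI effect at 7 days less that at 1 day was 0.090 ± 0.21 (SE, adjusted p = 0.838). The difference of the MI groups was kept under 9 of 18 alternatives (adjusted p 0.00135 to 0.163). It was lost with no filter on counts, the prefix block, the fit of both groups alone and the fits without replicates 1, 3 or 4 of 1d-MI or replicates 1, 2 or 3 of 7d-MI. That of the shams was kept under 11 of 20 alternatives (adjusted p 0.01298 to 0.426), the exceptions being no filter on counts, the prefix block, 1d-SHAM replicates 3 and 4 alone and the fits without replicates 1 or 2 of 1d-SHAM or replicates 1, 2, 3 or 4 of 7d-SHAM, and the change was -0.29 (adjusted p = 0.426) against replicates 3 and 4 of 1d-SHAM. Cep164 was measured at 5.14, 7.42, 7.13 and 6.66 for 1d-SHAM, 7.21, 8.197, 5.14 and 9.21 for 1d-MI, 6.53, 6.69, 5.69 and 7.06 for 7d-SHAM and 10.3, 7.97, 8.34 and 10.3 for 7d-MI and was higher in 7d-MI than in 7d-SHAM, by 0.51 ± 0.18 (SE, adjusted p = 0.0326), without overlap, kept under 9 of 18 alternatives (adjusted p 0.0206 to 0.154). The call was lost with upper-quartile scaling, TMM without the top 20 genes, no filter on counts, the prefix block and the fits without replicates 1, 2 or 3 of 7d-SHAM or replicates 1 or 4 of 7d-MI.

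**Figure D4:**
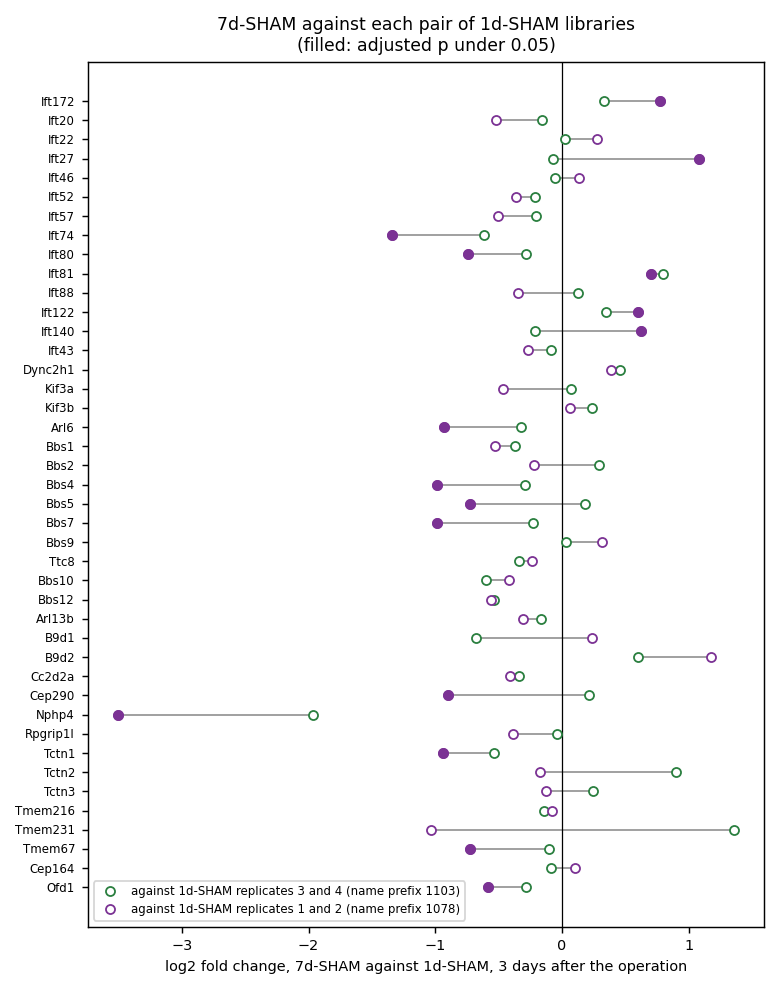
log2 fold change of each ciliary gene in 7d-SHAM against 1d-SHAM at 3 days, taken against replicates 3 and 4 (green) or replicates 1 and 2 (purple) of 1d-SHAM, with filled points at an adjusted p under 0.05. No green point and 16 purple points are filled, and Nphp4 is lowest in both.

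At 21 days no member passed the test in any comparison. Of all 24646 genes tested, 0.0325% were called in 7d-MI against 1d-MI, 0.0162% in 1d-MI against 1d-SHAM, 0.0% in 7d-MI against 7d-SHAM, 0.0% in 7d-SHAM against 1d-SHAM and 0.0% for the difference of the MI effects. At an unadjusted p under 0.05 in the edgeR fit, the members counted 7 in 7d-MI against 1d-MI, 4 in 7d-MI against 7d-SHAM, 7 in 1d-MI against 1d-SHAM, 0 between the shams and 3 for the difference, against 1606, 4111, 3599, 442 and 927 of all genes. DESeq2 called 1 member, Tctn3, in 1d-MI against 1d-SHAM and none in the other comparisons. The share of all genes that DESeq2 called is not given here, so its count cannot be set against a background.

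The values at 21 days are given here as descriptions. In 7d-MI against 1d-MI, 35 of the 42 fold changes were positive, with a median of 0.45 against -0.023 for all genes. Fibroblast markers were positive as well for 10 of 10 genes, with a summed level of 3331.3 to 5198.4 CPM in 7d-MI and 1905.8 to 2702.8 CPM in 1d-MI, as were valve markers for 6 of 6 and epicardial markers for 5 of 6, while proliferation markers were negative for 10 of 10. None of these markers was called, and their part in the members' values was not tested. The smallest unadjusted p were those of both kinesin subunits. Kif3a stood at 3.499, 3.35 and 4.399 for 1d-SHAM, 3.23, 2.84 and 1.89 for 1d-MI, 3.099, 3.08 and 3.06 for 7d-SHAM and 8.15, 3.69 and 4.12 for 7d-MI, and the MI groups did not overlap. The log2 fold change was 1.01 ± 0.36 (SE, unadjusted p = 0.0125, adjusted p = 0.553). Kif3b stood at 4.52, 2.42 and 5.83 for 1d-SHAM, 4.66, 3.402 and 5.28 for 1d-MI, 3.599, 5.16 and 6.97 for 7d-SHAM and 15.7, 6.85 and 7.14 for 7d-MI, with 1.15 ± 0.42 (SE, unadjusted p = 0.0144, adjusted p = 0.5704). Replicate 1 of 7d-MI was the highest library for both, and without it the members' median fell to 0.24.

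In 1d-MI against 1d-SHAM at 21 days, the smallest unadjusted p among the members was that of Tctn3, another tectonic of the zone. Its level was 1.75, 1.53 and 1.72 for 1d-SHAM, 5.94, 3.95 and 3.604 for 1d-MI, 3.28, 2.29 and 2.398 for 7d-SHAM and 3.09, 2.07 and 3.62 for 7d-MI. The 3 libraries of 1d-MI were the highest but for 1 library of 7d-MI, which stood above the lowest of them. The fold change was 1.43 ± 0.35 (SE, unadjusted p = 8.66e-04, adjusted p = 0.267), with an adjusted p of 0.0156 in DESeq2 and 0.0474 in the fit of both groups alone. Ift122, Ift20 and Ift43 were each higher in the 3 libraries of 1d-MI than in those of 1d-SHAM, by 1.001 ± 0.34 (SE, unadjusted p = 0.0105, adjusted p = 0.2899), 1.09 ± 0.43 (SE, unadjusted p = 0.0213, adjusted p = 0.303) and 0.97 ± 0.37 (SE, unadjusted p = 0.0185, adjusted p = 0.297). Ift74 was lower in each of them, at 2.69, 3.06 and 4.13 for 1d-SHAM and 0.9797, 1.42 and 1.96 for 1d-MI, by -1.17 ± 0.46 (SE, unadjusted p = 0.0215, adjusted p = 0.303).

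Ift81 at 21 days was found at 15.1, 6.93 and 14.7 for 1d-SHAM, 12.1, 9.49 and 20.4 for 1d-MI, 11.2, 14.8 and 10.2 for 7d-SHAM and 8.04, 8.41 and 6.53 for 7d-MI, so that the 3 libraries of 7d-MI lay below those of 7d-SHAM and of 1d-MI. The change was -0.66 ± 0.37 (SE, unadjusted p = 0.0935, adjusted p = 0.358) against 7d-SHAM and -0.87 ± 0.37 (SE, unadjusted p = 0.0311, adjusted p = 0.6897) against 1d-MI. Ofd1 was found at 3.29, 3.75 and 4.26 for 1d-SHAM, 2.56, 2.66 and 2.54 for 1d-MI, 2.82, 3.62 and 5.11 for 7d-SHAM and 4.298, 3.69 and 2.33 for 7d-MI, with -0.54 ± 0.34 (SE, unadjusted p = 0.127, adjusted p = 0.438) in 1d-MI against 1d-SHAM and -0.15 ± 0.33 (SE, unadjusted p = 0.653, adjusted p = 0.826) in 7d-MI against 7d-SHAM. Leaving out the 3 libraries rich in ribosomal RNA called no member in any comparison. Ift172 was called in 7d-MI against 7d-SHAM without replicate 1 of 7d-SHAM, at an adjusted p of 0.0269, against 0.99 ± 0.39 (SE, unadjusted p = 0.0234, adjusted p = 0.258) with it, and 4 members were called in that comparison without that library. The share of all genes called in that fit is not given here, so the 4 members cannot be set against a background.

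**Figure D5:**
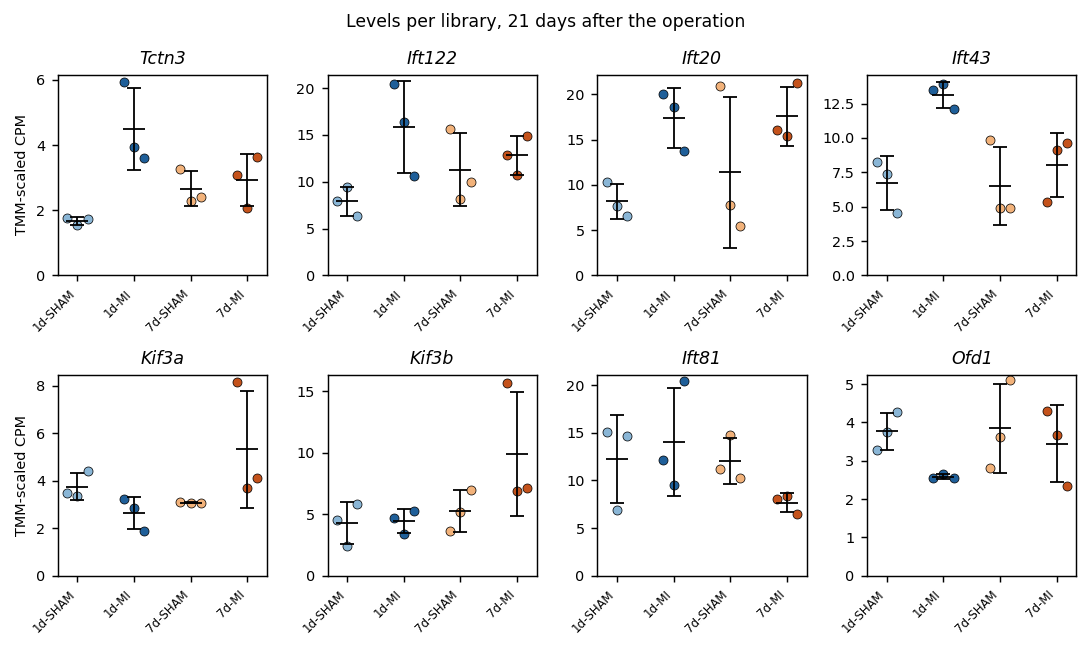
Level of 8 ciliary genes in each library 21 days after the operation, in TMM-scaled CPM from 0, with 1 point per library, the horizontal mark at the group mean and bars of 1 SD (n = 3). The points of Tctn3 in 1d-MI (3.60 to 5.94 CPM) stand above those of 1d-SHAM (1.53 to 1.75 CPM), and Kif3a and Kif3b are highest in replicate 1 of 7d-MI.

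Further genes of the pathway were read from lists of related genes. Of 20 other genes of intraflagellar transport and the BBSome, 2 were higher and 8 lower in 7d-MI than 1d-MI at 3 days, with a median of -0.22, and 3 were higher and 5 lower in 7d-MI than in 7d-SHAM. These shares of 10% and 40%, and of 15% and 25%, stand beside 3956 and 4789 of all 20345 genes, and 19.8% and 14.2%. Hspb11, the IFT-B subunit Ift25 that pairs with Ift27, gave -0.79 (adjusted p = 3.54e-04), Kifap3, the kinesin-2 accessory subunit, 0.73 (adjusted p = 4.15e-04), Bbip1, the smallest BBSome subunit, -0.60 (adjusted p = 9.81e-04) and Lztfl1, a regulator of BBSome traffic, -0.54 (adjusted p = 0.00258) in the first comparison. In the second, Tulp3, which carries receptors into the cilium with IFT-A, was higher by 1.87 (adjusted p = 9.52e-05), while Mkks, the third chaperonin-like gene, was lower by -0.82 (adjusted p = 2.87e-04). In 1d-MI against 1d-SHAM 1 of the 20 was higher and none lower, and between the shams 2 were higher and 3 lower. Those shares of 5% and 0%, and of 10% and 15%, stand beside 4.10% and 4.36%, and 8.12% and 12.2%, of all genes.

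Of 30 other genes of the transition zone and basal body, 5 were higher and 9 lower in 7d-MI than 1d-MI, 9 were higher and 3 lower in 7d-MI than in 7d-SHAM, and none was higher and 10 were lower in 7d-SHAM than in 1d-SHAM. The shares were 16.7% and 30% in the first, 30% and 10% in the second and 0% and 33.3% in the third, beside 3956 and 4789 of all 20345 genes, 19.8% and 14.2%, and 8.12% and 12.2%. Ahi1 was higher in 7d-MI than in 7d-SHAM, by 1.32 (adjusted p = 3.29e-05), as were Invs by 1.01 (adjusted p = 6.15e-04) and Ccp110, the cap that keeps a cilium from forming, by 0.96 (adjusted p = 6.15e-04). Ccp110 was lower between the shams, by -1.15 (adjusted p = 4.03e-04). Tmem17 was lower in 7d-MI than 1d-MI, by -1.01 (adjusted p = 3.94e-04).

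The list of cilium disassembly, 12 genes that include the mitotic kinases Plk1, Aurka and Nek2, had 8 higher and none lower in 7d-MI than in 7d-SHAM, with a median of 0.63, and none higher and 6 lower in 7d-SHAM than in 1d-SHAM, with a median of -0.65. Of all genes 19.8% were higher in the first and 12.2% lower in the second. Plk1 was higher by 1.65 (adjusted p = 4.56e-04) and Kif24 by 1.17 (adjusted p = 4.91e-04) in the first, and Nek2 was lower by -1.995 (adjusted p = 3.56e-05) and Aurka by -1.85 (adjusted p = 1.15e-04) in the second. The difference of the MI effects was positive and called for 7 of the 12, beside 9.01% of all genes. The 10 proliferation markers, Plk1 among them, were higher for 9 of 10 genes in the first and lower for 10 of 10 in the second, and 10 of 10 had a positive call in the difference of the MI effects. Their part in the result was not tested.

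Of 20 Hedgehog genes 19 were measured at 3 days, of which 9 were higher and 1 lower in 7d-MI than in 7d-SHAM, with a median of 0.56, beside 19.8% and 14.2% of all genes and a median of 0.082. Gli3, a transcription factor processed at the cilium, rose by 1.87 (adjusted p = 9.35e-07), Cdon, a coreceptor, by 1.19 (adjusted p = 1.66e-05) and Sufu, the brake on Gli proteins, by 1.09 (adjusted p = 0.00261). Gli3 was also higher in 1d-MI than in 1d-SHAM, by 0.75 (adjusted p = 0.02701), and the difference of the MI effects was 1.11 (adjusted p = 0.0128). In 7d-MI against 7d-SHAM 7 of 10 fibroblast markers were higher and 3 lower, and their part in it was not tested. Of 12 ciliary receptors, channels and cyclases 10 were measured. The polycystins Pkd1 and Pkd2 were higher in 7d-MI than in 7d-SHAM, by 0.97 (adjusted p = 6.52e-05) and 0.96 (adjusted p = 7.75e-05), and Adcy3, a cyclase used as a marker of cilia, by 1.74 (adjusted p = 3.56e-05), with differences of the MI effects of 0.97 (adjusted p = 0.00719), 0.79 (adjusted p = 0.02098) and 1.19 (adjusted p = 0.0365). In all, 3 of the 10 were higher and 2 lower in that comparison, and 3 were higher and 6 lower in 7d-MI than 1d-MI, beside 19.8% and 14.2% of all genes in the one and 3956 and 4789 of 20345 in the other. In 7d-MI against 1d-MI the fold changes of the 10 ran from -8.47 to 1.74, with a median of -2.61 against -0.13 for all genes. The 6 lower genes are not named here, and the part of the satellite-like reads in their values was not tested. Of 8 measured ciliary transcription factors, Rfx7 was higher in 7d-MI than in 7d-SHAM, by 1.14 (adjusted p = 0.00226), and Foxj1 and Rfx4 were called lower in 7d-MI than 1d-MI, where Rfx4 had a mean of 0.0753 CPM against 0.932 CPM.

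Motile cilia belong to other cells, of which airway and ependyma are the known sources, and their defining genes were near 0. Foxj1 had a mean of 0.846 CPM in 1d-MI, 0.0812 CPM in 1d-SHAM, 0.00967 CPM in 7d-MI and 0 in 7d-SHAM at 3 days. Of 8 measured genes of multiciliated cells, 5 were lower in 7d-MI than 1d-MI, beside 4789 of all 20345 genes, and the summed level of the 10 genes of that list was 4.33 to 5.85 CPM in 7d-MI and 6.31 to 14.99 CPM in 1d-MI, with Tppp3 at 3.29 to 4.01 CPM and 2.28 to 3.39 CPM of it. The higher means of Foxj1, Dnah5, Dnah9 and Dnah11 in 1d-MI fell in the libraries with satellite-like reads, whose part in them was not tested. At 3 days the 4 lung genes summed to at most 2.103 CPM in all libraries but 1 of 7d-MI, which had 8.58 CPM.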

How the data were processed

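Total RNA of 28 libraries was sequenced after TruSeq stranded preparation on a NextSeq550 (3 days) or ScriptSeqV2 preparation on a HiSeq instrument (21 days). The submitters' processing notes name TopHat2 2.0.11, Bowtie2 2.2.2, Cufflinks 2.2.1 and the build GRCm38. Which tool counted the reads, with which annotation and whether by strand, is not given in the sources used here. The authors deposited a gene table for each library or lane with raw counts, CPM, RPKM and the log2 of CPM and RPKM. Only the deposited counts were tested. The authors' CPM and RPKM served for checks and for gene lengths, and the deposited log2 values were not used. The 2 samples with 2 lanes were summed.

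Genes were kept by filterByExpr at a minimum count of 10 and a minimum total of 15. Robust quasi-likelihood fits were made in edgeR 4.0.16 (R 4.3.3) on TMM-scaled libraries, with 1 fit of 4 groups per follow-up. P-values were adjusted by Benjamini-Hochberg over all genes tested, and an adjusted p under 0.05 was called. All adjusted p-values in the text are from edgeR unless another tool is named. CPM in the text were computed from the deposited counts with TMM library sizes. Levels are mean ± SD over libraries, and fold changes carry the SE of the fit. Alternatives were RLE and upper-quartile scaling, no filter, a mean count of at least 50, TMM leaving out the top 20 genes, DESeq2 1.42.0, limma-voom (limma 3.58.1) with and without the name prefix as a random block, both groups of a comparison alone, subtraction of a background rate, the name number as a block at 21 days, and each library left out. The background rate of a library was its counts per length on receptor genes (symbols Olfr and Vmn). After the data had been seen, fits with half-groups of 1d-SHAM + 3 and without the libraries over 50% ribosomal RNA loci were added. The fit was tested on simulated data.

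Groups followed the labels. The labels do not say that the samples of a group are separate litters or animals, so p-values measure the spread between these samples, which may be technical. All replicate pairs differed by more than sampling noise. The 42 genes and the related lists were chosen with earlier results of these data known. Named in full were Ofd1, each member called in any comparison and, of the others, the 2 of smallest unadjusted p per role in 7d-MI against 1d-MI at 3 days; of a related list, up to 4 called genes of smallest p. Muc16, of a marker list, had no row of its name. A clone-named gene that the paper equates with Ofd1 had no row of its name either and was not analysed. Promoters came from a RefSeq table (GRCm38.p6), in which Ift80, Ift81, Ift122 and Tmem67 are not listed, and overlaps from GENCODE M21.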

Additional observations from a re-analysis of the deposited data

Results flagged for a closer look

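The effect of MI on Ift81 at 3 days differed between the ages in the edgeR fit, with an interaction of -1.21 ± 0.28 (SE, adjusted p = 0.007503) as a log2 value, from -1.63 ± 0.20 (SE, adjusted p = 4.06e-06) at 7 days and -0.41 ± 0.20 (SE, adjusted p = 0.179) at 1 day. With the prefix block in limma-voom the interaction was not called (adjusted p = 0.0608). All 4 libraries of 7d-MI stood lower than all 4 of 7d-SHAM, whereas 1d-MI and 1d-SHAM overlapped.

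Of 168 groups of 4 libraries tested for a library far from the other 3, 13 had one, where chance gives about 1 in 20 groups. In 1d-MI, replicate 3 was high for Ift140 (4.94 CPM), Arl6 (20.7 CPM), B9d1 (1.93 CPM) and Cc2d2a (20.9 CPM), replicate 1 for Dync2h1 (10.6 CPM) and replicate 4 for Ttc8 (6.35 CPM). In 7d-SHAM, replicate 2 was high for Ift22 (9.26 CPM) and low for Ofd1 (14.2 CPM), replicate 1 was high for Ift43 (28.9 CPM) and replicate 3 was high for Ttc8 (4.76 CPM). Replicate 3 of 7d-MI was low for Bbs7 (3.10 CPM). In 1d-SHAM, replicate 1 was low for B9d2 (0.418 CPM) and replicate 2 high for Nphp4 (2.33 CPM).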

How the results depend on the processing

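All 42 genes passed the minimum count at both follow-ups, and Nphp4 had no count in 1 library of 7d-SHAM at 3 days. The biological coefficient of variation of 0.567 with 3 libraries a group limits the comparisons at 21 days. Of 57 results on single genes, 1 changed its direction in any alternative: the difference of MI effects for Ofd1 at 3 days, which was 0.090 and became -0.14 with upper-quartile scaling, -0.038 with a mean count of at least 50, -0.087 with replicates 3 and 4 of 1d-SHAM alone, and -0.017 to 0.214 with single libraries left out. It was not called in any of these.

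The count of members called at 3 days moved by more than 1.5 times as follows. In 7d-MI against 7d-SHAM it was 3 with the prefix block. In 1d-MI against 1d-SHAM it was 0 with upper-quartile scaling, with the prefix block, in the fit of both groups alone and with replicates 1 and 2 of 1d-SHAM alone, and 4 with replicates 3 and 4 alone. Between the shams it was 5 with limma-voom, 0 with the prefix block, 0 with replicates 3 and 4 of 1d-SHAM and 16 with replicates 1 and 2. For the difference of the MI effects it was 0 with the prefix block and 2 with each pair of 1d-SHAM libraries. With single libraries left out it ran from 6 to 11 in 7d-MI against 1d-MI, from 3 to 7 in 7d-MI against 7d-SHAM, from 0 to 3 in 1d-MI against 1d-SHAM and from 2 to 11 between the shams. The cause was not tested, other than that fewer libraries enter the last fits. For limma-voom, the prefix block, the fit of both groups alone and the fits without single libraries, the share of all genes called is not given here.

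The members' median at 3 days was -0.468 with upper-quartile scaling and -0.366 with a mean count of at least 50 in 7d-MI against 1d-MI, 0.059 with upper-quartile scaling and 0.11 with replicates 3 and 4 of 1d-SHAM in 1d-MI against 1d-SHAM, and -0.097 with those replicates between the shams. For the difference of the MI effects it was -0.126 with upper-quartile scaling, -0.013 with a mean count of at least 50 and -0.036 with those replicates. Upper-quartile scaling moved the median of all genes as well, by -0.24 in 7d-MI against 1d-MI, 0.15 in 1d-MI against 1d-SHAM and -0.24 in the difference.

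At 21 days the median was -0.168 with upper-quartile scaling and -0.037 with a mean count of at least 50 in 7d-MI against 7d-SHAM, and -0.307 with upper-quartile scaling in 1d-MI against 1d-SHAM, where DESeq2 and the fit of both groups alone each called 1 member. The share of all genes called in those fits is not given here. With single libraries left out, 0 to 4 members were called in 7d-MI against 7d-SHAM, the median ran from 0.239 to 0.511 in 7d-MI against 1d-MI, and it ran from 0.039 to 0.412 for the difference. Library names carry a number that some groups share at 21 days. Same-number libraries did not deviate together in all pairs (r from -0.20 to 0.56), and pairs of different number gave r from -0.59 to 0.44. The highest r of all pairs was that of a same-number pair, replicate 1 of 1d-MI with replicate 1 of 7d-SHAM. With so few libraries in a group, these values cannot decide whether the numbers pair samples. With the number as a replicate block no member was called in any comparison, as without it, and the median was 0.418 in 7d-MI against 1d-MI, 0.143 in 7d-MI against 7d-SHAM, 0.10 in 1d-MI against 1d-SHAM, 0.199 between the shams and 0.184 for the difference.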
